A study of Rattus norvegicus with 24 samples.

Results

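The 8 genes described here sense sterols in the liver cell or move cholesterol into and out of it. They are Srebf2, Scap, Insig1, Mylip, Nr1h3, Abca1, Abcg5 and Abcg8, and they were taken by gene name from the 30957 gene rows of a liver RNA sequencing table of 24 female Sprague-Dawley rats. Their Ensembl identifiers in the table are ENSRNOG00000007400 (Srebf2), ENSRNOG00000020853 (Scap), ENSRNOG00000006859 (Insig1), ENSRNOG00000017579 (Mylip), ENSRNOG00000013172 (Nr1h3), ENSRNOG00000018126 (Abca1), ENSRNOG00000005250 (Abcg5) and ENSRNOG00000005420 (Abcg8). The rats were 6 weeks old when housing began and 14 weeks old at sampling. DL.reuteri rats (n = 8) spent 8 weeks in the dark for 24 h per day and were given the bacterium L. reuteri by mouth at 100 mg per day. Darkness rats (n = 8) were housed in the same way and received saline. Control rats (n = 8) received saline under 12 h of light and 12 h of dark. No group analysed here received L. reuteri under a light cycle, so a difference between DL.reuteri rats and control rats combines darkness with the bacterium. The rats shared cages that the labels do not name, all livers came from fasted rats, and each rat gave 1 library, so p-values treat the rats as independent.

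Cells keep their cholesterol within narrow limits through opposed transcription factors. SREBP2, the product of Srebf2, is held in the endoplasmic reticulum by its escort SCAP when sterols are plentiful, because SCAP then binds an INSIG protein such as that of Insig1, and when sterols run low SCAP carries SREBP2 to the Golgi, where it is cut and released to switch on genes of cholesterol synthesis and uptake. Liver X receptors, one of which is encoded by Nr1h3 and is abundant in liver, respond to oxysterols and pair with retinoid X receptors to switch on genes of cholesterol disposal. Among their targets are Mylip, whose ubiquitin ligase limits the uptake of LDL, Abca1, which loads cholesterol onto apolipoprotein A-I to form HDL, and Abcg5 and Abcg8, the paired subunits of the transporter that secretes sterols into bile.

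All 8 genes were found among the promoter windows of RefSeq (build GRCr8), which run from 250 bases before the start site to 50 bases after it. The FPKM were made on Rnor 6.0, so these windows give sequence context and no coordinates of the expression table. Shown are those of the genes to which the largest differences below belong, together with Srebf2 and Abca1, which held the rarer motifs. The letters searched, on both strands, were TCACNCCA for the sterol response element bound by SREBPs (in 3.89% of the 33469 promoter windows), CACGTG for the E-box (6.42%), CCAAT (37.5%) and GGTNANNNNNGGTCA for a direct repeat of the kind that liver X receptors bind (0.23%). Capitals mark matches on either strand. The Srebf2 window is chr7:115543057-115543356, plus strand, that of Insig1 chr4:8057720-8058019, minus strand, that of Abca1 chr5:72596424-72596723, minus strand and that of Abcg5 chr6:15717686-15717985, plus strand.
Srebf2: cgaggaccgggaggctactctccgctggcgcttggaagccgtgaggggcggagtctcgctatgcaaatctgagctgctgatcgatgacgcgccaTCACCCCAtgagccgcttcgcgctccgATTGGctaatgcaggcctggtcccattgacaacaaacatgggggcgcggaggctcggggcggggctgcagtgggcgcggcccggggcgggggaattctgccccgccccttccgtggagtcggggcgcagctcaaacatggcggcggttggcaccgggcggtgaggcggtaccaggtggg
Insig1: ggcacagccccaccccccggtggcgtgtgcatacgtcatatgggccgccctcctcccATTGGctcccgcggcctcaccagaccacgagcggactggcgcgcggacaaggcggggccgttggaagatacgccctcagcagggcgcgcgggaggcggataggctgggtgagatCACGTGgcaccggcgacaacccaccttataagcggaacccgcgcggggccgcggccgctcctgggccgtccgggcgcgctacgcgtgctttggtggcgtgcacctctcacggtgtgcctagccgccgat
Abca1: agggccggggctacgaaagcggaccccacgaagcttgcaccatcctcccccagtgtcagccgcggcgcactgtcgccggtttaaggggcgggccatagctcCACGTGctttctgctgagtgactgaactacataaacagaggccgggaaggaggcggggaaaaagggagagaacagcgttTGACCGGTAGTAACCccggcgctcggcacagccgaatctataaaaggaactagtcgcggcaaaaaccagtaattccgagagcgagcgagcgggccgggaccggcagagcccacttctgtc
Abcg5: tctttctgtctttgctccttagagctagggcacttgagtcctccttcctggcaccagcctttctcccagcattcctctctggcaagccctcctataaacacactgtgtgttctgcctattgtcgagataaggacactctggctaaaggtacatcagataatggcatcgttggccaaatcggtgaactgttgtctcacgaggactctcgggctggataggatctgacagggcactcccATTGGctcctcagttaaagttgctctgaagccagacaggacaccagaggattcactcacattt

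Srebf2 held the sterol response letters at -156 to -149 from its start site and a CCAAT box at -129 to -125. Insig1 held an E-box at -79 to -74 and a CCAAT box at -193 to -189. Abca1 held an E-box at -149 to -144 and the direct repeat, on the opposite strand, at -70 to -56. Abcg5 and Abcg8 start 206 bases apart and are read in opposite directions, so that their windows share 295 bases. The one CCAAT box in that stretch lies at -13 to -9 of Abcg5 and at -197 to -193 of Abcg8. Of the windows not printed, that of Scap held an E-box at -50 to -45, that of Mylip held 2 CCAAT boxes and that of Nr1h3 held none of the motifs. A match describes letters in this window and was not tested for binding.

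FPKM, the fragments assigned to a gene per kilobase of its length and scaled to the mapped fragments of the library, can be compared between genes because they account for length. The deposited table holds no read counts, so the depth of a library is unknown. The livers carried hepatocyte RNA in every library, with 0 of 10 hepatocyte markers at 0, but DL.reuteri 3 stood apart. There, 85.0% of the FPKM came from the mitochondrial genome, against 12.4% to 59.7% in the darkness libraries and 21.0% to 52.6% in the control libraries. The mean log2(FPKM + 1) of the hepatocyte markers was 8.27 in DL.reuteri 3, whereas the darkness libraries had 10.57 to 11.69 and the control libraries 10.71 to 11.51. Results that rest on this library are given with and without it. DL.reuteri 2 and control 8 also stood apart, in fat cell markers, which summed to 225 FPKM in DL.reuteri 2, with 23.0 to 40.2 FPKM in the other DL.reuteri libraries, 28.8 to 49.0 FPKM in the darkness libraries, and 379 FPKM in control 8, with 34.6 to 52.7 FPKM in the other control libraries. In whole liver, fewer cells of a type and less RNA per cell cannot be told apart.

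Insig1 was the most abundant of the 8 genes, with 275 FPKM on average over the 24 libraries. Nr1h3 followed at 61.0 FPKM. Abca1, Srebf2 and Scap had nearly the same level at 10.5, 10.2 and 10.1 FPKM, and their ranges over libraries overlapped. The biliary transporter genes and the ligase gene were the least abundant, with Abcg5 at 3.88 FPKM, Mylip at 1.45 FPKM and Abcg8 at 1.39 FPKM. Insig1 and Nr1h3 overlapped no other of the genes over the libraries, whereas the ranges of Abca1 and Abcg5, of Abcg5 and Mylip and of Mylip and Abcg8 overlapped. Rats differed most in the transporter genes, since the highest library had 27.6 times the Abcg8 level of the lowest and 14.2 times the Abcg5 level. For Srebf2 the same ratio was 2.04. All 8 genes reached 0.5 FPKM in 8 libraries or more, the filter that 12151 genes passed.

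**Figure D1:**
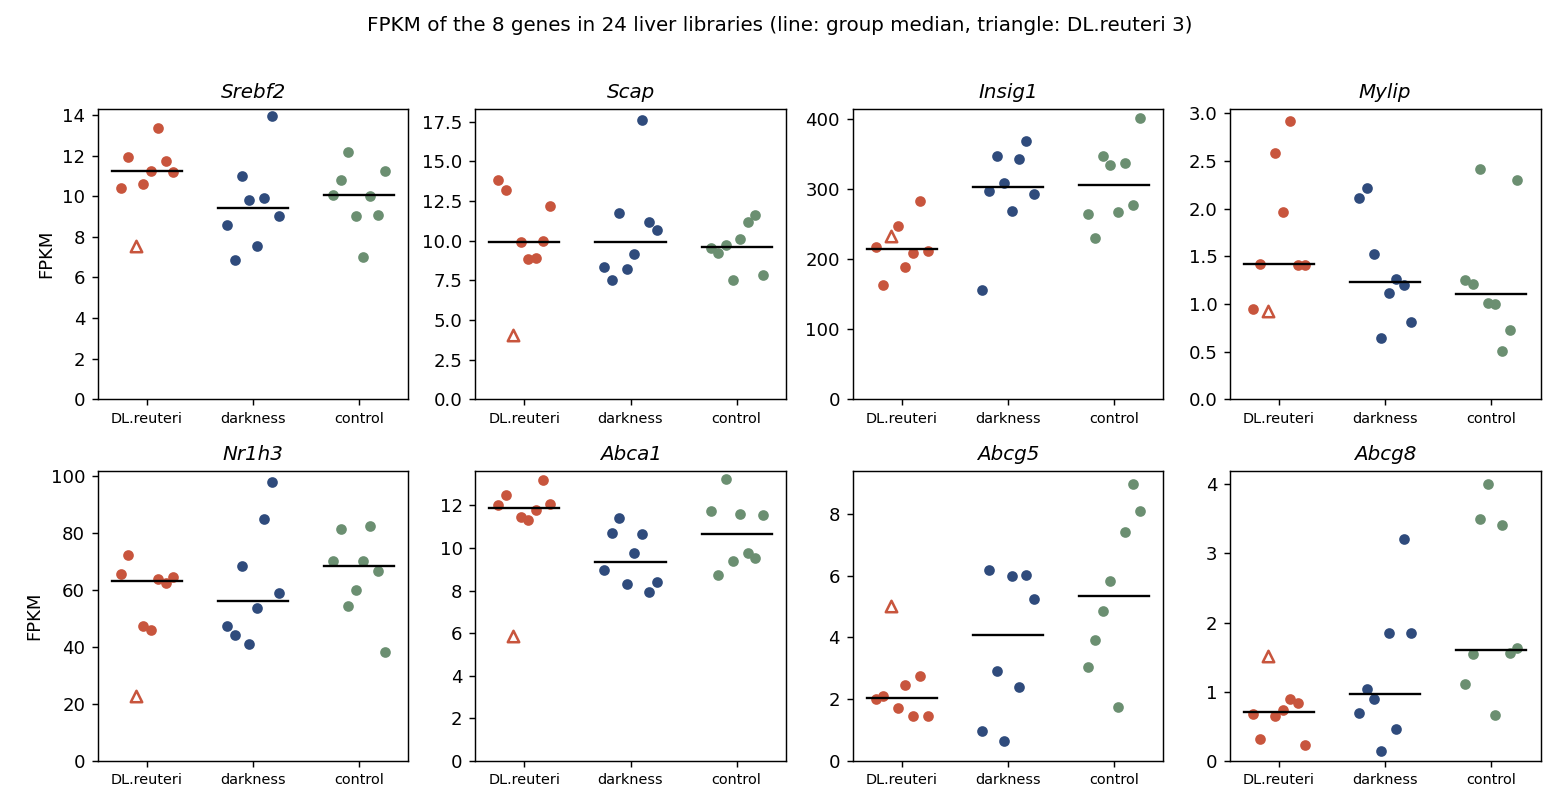
FPKM of each of the 8 genes in every library (y axis, from 0) for the DL.reuteri, darkness and control groups (x axis, 8 points per group in order of library number). Black lines are group medians, and the open triangle is DL.reuteri 3, which is the lowest library of its group for Srebf2, Scap, Mylip, Nr1h3 and Abca1 and the highest for Abcg5 and Abcg8.

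Among the genes that control SREBP2, Insig1 was lower in DL.reuteri rats than in both other groups, although not after adjustment over all genes. Insig1 lay between 163 and 283 FPKM in DL.reuteri rats (median 214), between 156 and 368 FPKM in darkness rats (median 303) and between 231 and 401 FPKM in control rats (median 305). All 8 DL.reuteri libraries were below the median of the darkness rats and below that of the control rats, and 5 of them were below the lowest control library. The groups still overlapped, and the lowest library of all was darkness 1. Against darkness rats the difference in Insig1 was -0.42 on the log2(FPKM + 1) scale (SE 0.18, 95% interval -0.78 to -0.05), with p = 0.0266 and adjusted p = 0.231 from limma and p = 0.0242 from a two-sided exact permutation test. Against control rats it was -0.48 (SE 0.18, 95% interval -0.85 to -0.12), with p = 0.0115 and adjusted p = 0.248 from limma and p = 0.0023 from the exact test. The mean was 219 ± 36.5 FPKM in DL.reuteri rats, 298 ± 66.0 FPKM in darkness rats and 307 ± 56.6 FPKM in control rats (SD, n = 8 each).

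Darkness alone left Insig1 at a difference from control rats of -0.07 (95% interval -0.43 to 0.30, exact permutation p = 0.737). When DL.reuteri 3 was left out, the adjusted p for Insig1 was 0.0886 against darkness rats and 0.0915 against control rats. When FPKM were rescaled to the sum outside the mitochondrial genome, which put the median of all genes at 0.17 against darkness rats and at 0.13 against control rats, the Insig1 differences were -0.26 (adjusted p = 0.503, limma) and -0.30 (adjusted p = 0.485, limma).

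Srebf2 itself differed little between the groups. Its FPKM ran from 7.55 to 13.4 in DL.reuteri rats (median 11.2), from 6.83 to 13.9 in darkness rats (median 9.43) and from 7.00 to 12.2 in control rats (median 10.1). The ranges overlapped almost wholly, although 7 of 8 DL.reuteri libraries were above the darkness median. The difference was 0.19 between DL.reuteri rats and darkness rats (95% interval -0.09 to 0.48, adjusted p = 0.512, limma) and -0.06 between darkness rats and control rats (95% interval -0.34 to 0.22). Without DL.reuteri 3, Srebf2 was higher in DL.reuteri rats than in darkness rats by 0.26 at an unadjusted p below 0.05 only (adjusted p = 0.180, limma).

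Scap, the escort of SREBP2, ran from 4.07 to 13.8 FPKM in DL.reuteri rats, from 7.54 to 17.6 FPKM in darkness rats and from 7.54 to 11.6 FPKM in control rats. The medians were close, at 9.94, 9.93 and 9.62 FPKM in DL.reuteri, darkness and control rats, and no group stood out. The differences in Scap were 0.10 between darkness rats and control rats, -0.08 between DL.reuteri rats and darkness rats and 0.02 between DL.reuteri rats and control rats, each with an interval that reached at least 0.28 to either side of 0. The sign against darkness rats turned to 0.07 without DL.reuteri 3.

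Mylip, which acts on LDL uptake, was expressed at a low level and overlapped between all groups. It ran from 0.920 to 2.92 FPKM in DL.reuteri rats (median 1.42), from 0.642 to 2.21 FPKM in darkness rats (median 1.23) and from 0.504 to 2.41 FPKM in control rats (median 1.11). The highest values came from DL.reuteri 6 and DL.reuteri 4, and 6 of 8 DL.reuteri libraries were above the median of either other group. The difference was 0.18 against darkness rats (95% interval -0.19 to 0.56, exact permutation p = 0.319) and 0.24 against control rats (95% interval -0.14 to 0.62, exact permutation p = 0.246). Macrophage markers summed to between 36.3 and 728 FPKM in DL.reuteri rats, between 207 and 659 FPKM in darkness rats and between 274 and 685 FPKM in control rats, with 0 of 10 at 0 in any library, and their part in the Mylip values was not tested.

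Nr1h3, the oxysterol receptor, had 22.7 to 72.4 FPKM in DL.reuteri rats (median 63.3), 41.0 to 98.0 FPKM in darkness rats (median 56.2) and 38.1 to 82.3 FPKM in control rats (median 68.4). DL.reuteri 3 was the lowest library of all and darkness 7 the highest. The differences were -0.10 between darkness rats and control rats, -0.16 between DL.reuteri rats and darkness rats and -0.27 between DL.reuteri rats and control rats, the smallest exact permutation p being 0.280. Without DL.reuteri 3 the difference from darkness rats was 0.00 and that from control rats was -0.10.

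The exporter gene Abca1 was higher in DL.reuteri rats than in darkness rats once DL.reuteri 3 was left out. Over 39 alternative settings, the unadjusted p of this difference was below 0.05 in 5. Abca1 was 12.0, 12.5, 5.85, 11.4, 11.3, 11.8, 13.2 and 12.1 FPKM in DL.reuteri rats 1 to 8. It was 8.97, 10.7, 11.4, 8.32, 9.75, 10.7, 7.92 and 8.42 FPKM in darkness rats 1 to 8, and it ran from 8.71 to 13.3 FPKM (median 10.6) in control rats. In DL.reuteri rats 6 of 8 libraries were above the highest darkness library, whereas DL.reuteri 3 was below the lowest. Over all libraries the difference in Abca1 from darkness rats was 0.20 (95% interval -0.08 to 0.48, exact permutation p = 0.152, adjusted p = 0.491 in limma). Without DL.reuteri 3 Abca1 rose in DL.reuteri rats relative to darkness rats by 0.32 (SE 0.10, adjusted p = 0.0469, limma), with means of 12.0 ± 0.652 FPKM (SD, n = 7) in DL.reuteri rats and 9.52 ± 1.3 FPKM (SD, n = 8) in darkness rats. In that fit 10% of all tested genes passed the adjusted threshold, and 8.81% passed it as higher in DL.reuteri rats. At an unadjusted p below 0.05 it had 2 of the 8 genes higher (Srebf2 and Abca1) and 1 lower (Insig1), where 26.7% of all genes differed, 22.8% being higher and 3.94% lower. Markers of sinusoidal endothelial cells, which line the blood channels of the liver, summed to between 34.1 and 84.9 FPKM in DL.reuteri rats, between 41.5 and 73.5 FPKM in darkness rats and between 49.0 and 77.4 FPKM in control rats, with none at 0 in any library. Without DL.reuteri 3, 2 of 7 tested endothelial markers were higher in DL.reuteri rats than in darkness rats at an unadjusted p below 0.05, where 22.8% of all genes were higher. They were Fcgr2b, which rose by 0.57 (adjusted p = 0.0307, limma), and Kdr (0.43, adjusted p = 0.105, limma), named after their values were seen. The other tested markers, Stab2 (0.29), Cdh5 (0.23), Stab1 (0.03), Lyve1 (0.02) and Clec4g (-0.09), were not past that threshold. The part of these cells in the Abca1 values was not tested. Relative to control rats, Abca1 differed by 0.05 over all libraries and by 0.17 without DL.reuteri 3 (adjusted p = 0.380, limma).

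Abcg5 and Abcg8, which secrete sterols into bile only as a complex, had their lowest means in DL.reuteri rats and their highest in control rats, with darkness rats in between. The lowest library of all for both genes was darkness 4. Abcg5 was 1.99, 2.11, 5.02, 1.73, 2.45, 1.45, 2.74 and 1.44 FPKM in DL.reuteri rats 1 to 8. It was 0.982, 6.19, 2.92, 0.631, 6.00, 2.39, 6.02 and 5.25 FPKM in darkness rats 1 to 8, and 3.03, 3.92, 4.86, 5.82, 1.74, 7.40, 8.98 and 8.09 FPKM in control rats 1 to 8. The DL.reuteri libraries other than number 3 were at or under 2.74 FPKM, while the darkness libraries fell into 4 above 5 FPKM and 4 under 3 FPKM. All 8 DL.reuteri libraries were below the control median, and 3 were below the lowest control library. The mean of Abcg5 was 2.36 ± 1.16 FPKM in DL.reuteri rats, 3.80 ± 2.34 FPKM in darkness rats and 5.48 ± 2.56 FPKM in control rats (SD, n = 8 each), so that the mean in DL.reuteri rats was 0.432 times that in control rats.

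Abcg8 was 0.683, 0.313, 1.52, 0.643, 0.743, 0.888, 0.831 and 0.228 FPKM in DL.reuteri rats 1 to 8. It was 0.694, 1.03, 0.902, 0.145, 1.84, 0.454, 3.21 and 1.85 FPKM in darkness rats 1 to 8, and 1.12, 1.55, 3.50, 4.0, 0.670, 3.42, 1.57 and 1.63 FPKM in control rats 1 to 8. Again all 8 DL.reuteri libraries were below the control median and 3 below the lowest control library, and only darkness 7 and controls 3, 4 and 6 were over 3 FPKM. The mean of Abcg8 in DL.reuteri rats was 0.335 times that in control rats.

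Between DL.reuteri rats and control rats, Abcg5 differed by -0.89 (SE 0.31, 95% interval -1.53 to -0.26), with p = 0.00775 and adjusted p = 0.227 in limma and p = 0.0078 in the exact permutation test. Abcg8 differed by -0.81 (SE 0.24, 95% interval -1.31 to -0.31), with p = 0.00248 and adjusted p = 0.162 in limma and p = 0.0033 in the exact permutation test. Both are on the log2(FPKM + 1) scale, which understates the change of genes near 1 FPKM. Without DL.reuteri 3, where 19.2% of all genes differed at an unadjusted p below 0.05 and 5.14% were lower, the differences were -1.02 for Abcg5 (adjusted p = 0.0730) and -0.89 for Abcg8 (adjusted p = 0.0558), again from limma.

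The 2 steps between these groups were each smaller and less certain. Between darkness rats and control rats Abcg5 differed by -0.52 (95% interval -1.15 to 0.12, exact permutation p = 0.197) and Abcg8 by -0.50 (95% interval -1.0 to -0.01), for which limma gave p = 0.0475 and the exact permutation test p = 0.111. DL.reuteri rats differed from darkness rats by -0.38 for Abcg5 and by -0.31 for Abcg8 (exact permutation p = 0.279 and 0.229). The 3 comparisons share groups and are not independent of each other. Markers of bile duct cells, which line the ducts that receive this bile, summed to between 0.779 and 7.57 FPKM in DL.reuteri rats, between 2.36 and 16 FPKM in darkness rats and between 5.46 and 13.7 FPKM in control rats. Of the 6 markers, 3 could be tested and 1 was lower in DL.reuteri rats than in control rats at an unadjusted p below 0.05, where 6.81% of all genes were lower. It was Krt19 (-0.69), named after its values were seen. Without DL.reuteri 3 none of the 3 was lower by that measure, and Krt19 differed by -0.56. Between 0 and 3 of the 6 were at 0 in a library. The part of these cells in the transporter values was not tested.

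The 2 subunits also varied together between rats of a group. Over the 24 libraries, after the mean of each group was taken off, Pearson's r of log2(FPKM + 1) between Abcg5 and Abcg8 was 0.71, and it was 0.69 without DL.reuteri 3. Of all tested genes, Abcg5 was the one most like Abcg8, and Abcg8 was the second most like Abcg5, after LOC287167 (r = 0.71). The ratio of Abcg5 to Abcg8 in a library had a median of 3.29 in DL.reuteri rats (1.63 to 6.73), 3.24 in darkness rats (1.41 to 5.98) and 2.56 in control rats (1.39 to 5.73). The ratios overlapped throughout.

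**Figure D2:**
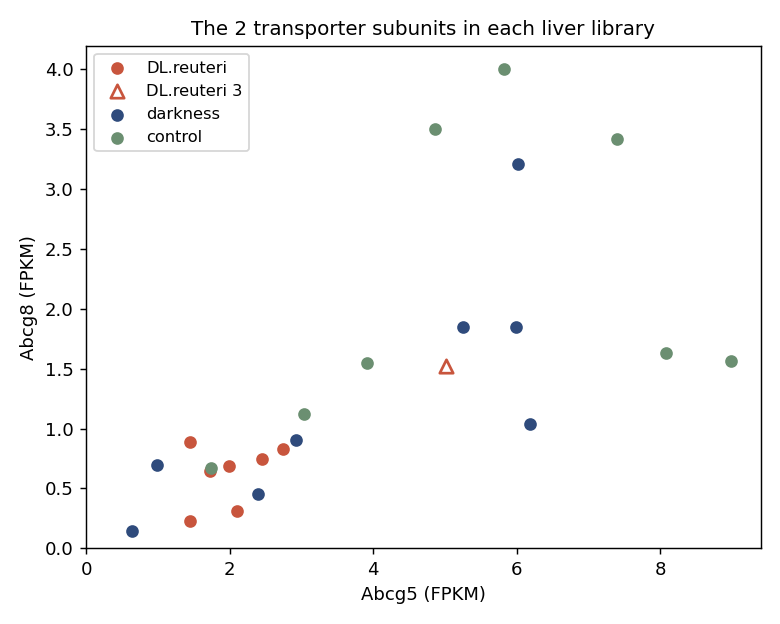
Abcg5 (x axis, FPKM) against Abcg8 (y axis, FPKM) in each of the 24 libraries, 1 point per rat, coloured by group, with DL.reuteri 3 as an open triangle. DL.reuteri libraries other than number 3 lie at or under 2.74 FPKM of Abcg5 and 0.888 FPKM of Abcg8, and control libraries reach 8.98 and 4.0 FPKM.

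Counted over the 8 genes, none passed an adjusted p under 0.05 in limma in any of the 3 comparisons. Of all tested genes, 0% passed between darkness rats and control rats, 0.0823% between DL.reuteri rats and darkness rats and 0.14% between DL.reuteri rats and control rats. At the unadjusted threshold of 0.05, 1 of 8 genes (Abcg8, lower) differed between darkness rats and control rats, where 2.78% of all genes did and 2.3% were lower. In DL.reuteri rats 1 of 8 (Insig1, lower) differed from darkness rats, where 16.8% of all genes did and 4.89% were lower. From control rats 3 of 8 (Insig1, Abcg5 and Abcg8, all lower) differed in DL.reuteri rats, where 13.2% of all genes did and 6.81% were lower. The exact permutation test gave p under 0.05 for 0, 1 and 3 of the genes in these comparisons. It was run on the 8 genes only, so no share of all genes can be set beside these counts. With 12870 splits it could go no lower than 0.0001554.

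The median difference of the 8 genes was -0.08 between darkness rats and control rats, -0.12 between DL.reuteri rats and darkness rats and -0.12 between DL.reuteri rats and control rats. The medians of all tested genes were -0.07, 0.07 and 0.00 in the same comparisons. Without DL.reuteri 3 both negative medians in DL.reuteri rats turned to 0.04, against darkness rats and against control rats, and those of all tested genes were 0.15 and 0.08. The split of all genes at an unadjusted p below 0.05 depended on scaling. It was 58 higher and 280 lower between darkness rats and control rats, and 143 and 180 after rescaling by median ratios. It was 1453 higher and 594 lower between DL.reuteri rats and darkness rats, and 1145 and 1144 after that rescaling. It was 781 higher and 827 lower between DL.reuteri rats and control rats, and 1957 and 557 after rescaling to the sum outside the mitochondrial genome.

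**Figure D3:**
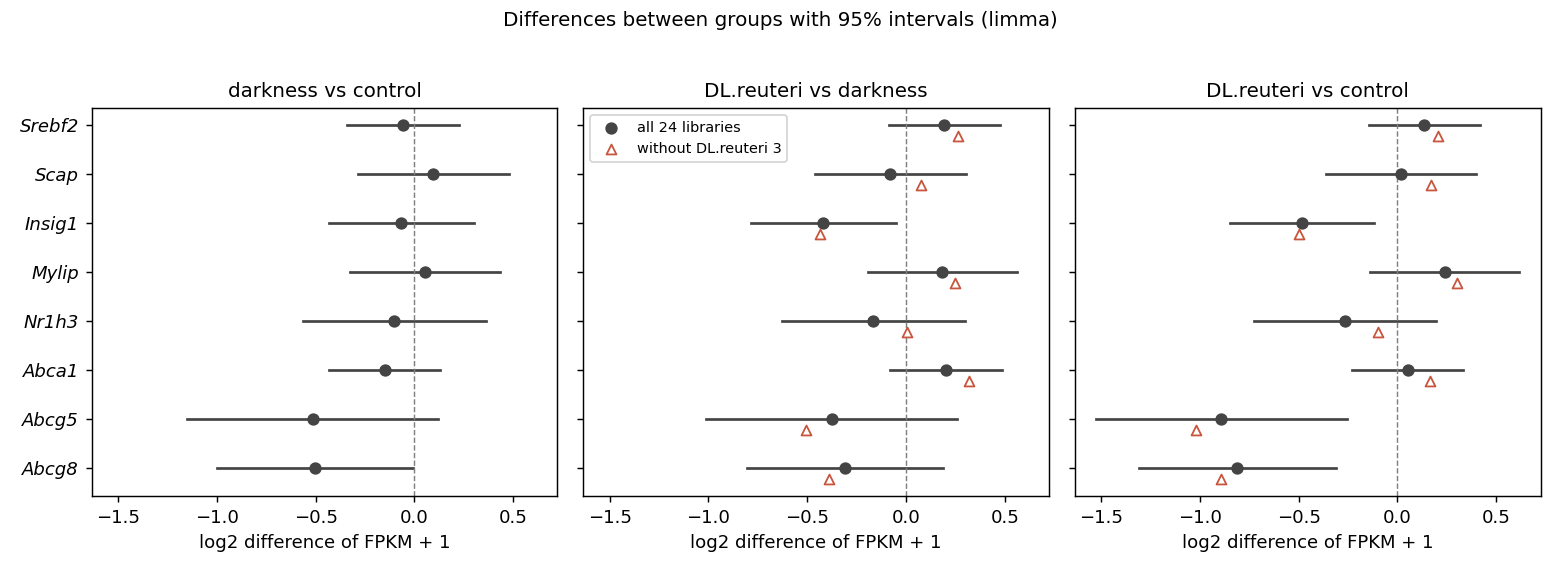
Difference in mean log2(FPKM + 1) of each gene (y axis) for darkness vs control, DL.reuteri vs darkness and DL.reuteri vs control (panels), with 95% intervals of the limma fit as lines and the estimate without DL.reuteri 3 as open triangles. Values below 0 are lower in the group named first, and the intervals that do not reach 0 are those of Abcg8 in the first panel, Insig1 in the second and Insig1, Abcg5 and Abcg8 in the third.

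Other genes of the same pathways were counted from lists. Of 21 tested genes of cholesterol synthesis that SREBP2 controls, 6 were higher and 0 lower in DL.reuteri rats at an unadjusted p below 0.05, both against darkness rats, where 12% of all genes were higher, and against control rats, where 6.43% were. Without DL.reuteri 3 the number higher was 12 against darkness rats and 11 against control rats, where 22.8% and 14.1% of all genes were higher. None passed the adjusted threshold over all libraries, and 5 rose at an adjusted p under 0.05 in each comparison without DL.reuteri 3, where 8.81% of all genes were higher by that measure against darkness rats and 1.62% against control rats (2.07% in either direction). Hmgcs1, an early enzyme of the mevalonate pathway, had 269 ± 116 FPKM in DL.reuteri rats, 101 ± 64.9 FPKM in darkness rats and 98.4 ± 31.9 FPKM in control rats (SD, n = 8 each). Its difference from darkness rats was 1.4 (adjusted p = 0.0551, limma), and those of the isomerase gene Idi1 and the sterol oxidase gene Msmo1 were 1.37 and 1.21. Against control rats the differences of Hmgcs1, Idi1 and Msmo1 were 1.31, 1.20 and 1.19. Insig1, like these genes a target of SREBP2, was lower at the unadjusted threshold in the rats in which they were higher. In darkness rats against control rats 1 of the 21, Stard4, which carries cholesterol within the cell, was lower by that measure (-0.62), where 2.3% of all genes were lower. It stayed below that threshold in 21 of 38 alternative settings.

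The list of 10 genes of SREBP processing and INSIG turnover also held Insig2 and Srebf1, which the study had picked out from these same livers. Darkness rats against control rats had 1 gene higher (Srebf1) and 1 lower (Insig2) at an unadjusted p below 0.05. Of all genes 0.477% were higher and 2.3% lower, but with genes picked from these data the count is no independent test. Insig2, the other INSIG gene, had 17.1 to 57.0 FPKM (median 33.5) in darkness rats, against 69.2 to 183 FPKM (median 91.3) in control rats, with no overlap between the groups, which 0.0329% of all tested genes showed. Its difference was -1.61 (adjusted p = 0.798, limma). In all 38 alternative settings its unadjusted p was below 0.05, while its adjusted p ranged from 0.000406 to 0.99998 (limma, or the linear model of Ballgown). Srebf1, which encodes the SREBP of fatty acid synthesis, was the one higher gene (0.92, adjusted p = 0.9998, limma). In DL.reuteri rats against darkness rats Insig2 differed by 0.96 and Srebf1 by -0.79, with adjusted p of 0.174 and 0.145 (limma). Without DL.reuteri 3 Insig2 rose in DL.reuteri rats relative to darkness rats by 1.22 (adjusted p = 0.0169, limma). The median ratio of Insig1 to Insig2 was 2.83 in DL.reuteri rats (1.17 to 13.8), 8.08 in darkness rats (6.01 to 18.1) and 3.36 in control rats (1.85 to 4.75). The table gives Insig2, Srebf1 and the 3 Rxr genes with 9 to 10 digits, whereas the 8 genes described here have 13 to 15. Paqr3, which holds SCAP in the Golgi, differed by -0.52 between DL.reuteri rats and control rats (adjusted p = 0.320, limma), and by -0.38 without DL.reuteri 3, where it was not below the unadjusted threshold.

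Among the genes of LDL uptake and lysosomal cholesterol release, the remnant receptor gene Lrp1 and Npc1, whose protein moves cholesterol out of lysosomes, were higher in DL.reuteri rats than in darkness rats at an unadjusted p below 0.05, where 12% of all genes were higher. Of the other genes of the list described here, Lipa (0.18), Stard3 (-0.04), Scarb1 (-0.08) and Npc2 (-0.23) were not past that threshold. Lrp1 had 51.5 ± 14.1 FPKM in DL.reuteri rats, 38.7 ± 8.41 FPKM in darkness rats and 42.2 ± 3.20 FPKM in control rats (SD, n = 8 each), and Npc1 had 23.6 ± 5.13, 16.05 ± 3.16 and 15.96 ± 3.43 FPKM in DL.reuteri, darkness and control rats. The differences from darkness rats were 0.38 for Lrp1 and 0.52 for Npc1, and Npc1 also differed from control rats by 0.53. Neither passed adjustment over all libraries, and Lrp1 (adjusted p = 0.0221, limma) and Npc1 (adjusted p = 0.0120, limma) rose in DL.reuteri rats relative to darkness rats without DL.reuteri 3, where 8.81% of all genes rose.

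Of 13 tested partners and further targets of the liver X receptors, 2 were higher in darkness rats than in control rats at an unadjusted p below 0.05, namely the retinoid X receptor genes Rxra (0.93) and Rxrb (0.21), where 0.477% of all genes were higher. Rxra was picked out by the study from these same livers, so counts that include it are not independent of that choice. Rxra stayed below the threshold in all 38 alternative settings. Rxrb was close to the threshold and stayed below it in 15 of 38. In DL.reuteri rats 2 were higher and 3 lower than in darkness rats, where 12% of all genes were higher and 4.89% lower. Against control rats 1 was higher and 3 lower, where 6.43% and 6.81% of all genes were. Rxra had 10.9 ± 6.00 FPKM in DL.reuteri rats, 20.04 ± 6.85 FPKM in darkness rats and 10.2 ± 3.83 FPKM in control rats (SD, n = 8 each). Cyp7a1, the rate-limiting enzyme of bile acid synthesis, had 107 ± 50.5 FPKM in DL.reuteri rats, 36.9 ± 22.8 FPKM in darkness rats and 38.4 ± 26.4 FPKM in control rats. Its differences were 1.58 against darkness rats (adjusted p = 0.0690) and 1.63 against control rats (adjusted p = 0.110), from limma. Without DL.reuteri 3 Cyp7a1 rose in DL.reuteri rats relative to both, with adjusted p of 0.0160 and 0.0374 (limma). Rxrg differed in DL.reuteri rats by -0.69 against darkness rats and by -0.64 against control rats, and the desaturase gene Scd1 by -1.85 against darkness rats and by -1.84 against control rats, all at an unadjusted p below 0.05. Without DL.reuteri 3 Rxra (adjusted p = 0.0398, limma) and Rxrg (adjusted p = 0.0338, limma) fell in DL.reuteri rats relative to darkness rats.

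Apoa1, the apolipoprotein that accepts cholesterol from ABCA1, had 1037 ± 441 FPKM in DL.reuteri rats, 1866 ± 276 FPKM in darkness rats and 1525 ± 537 FPKM in control rats (SD, n = 8 each). It was the 1 lower gene, and the esterase gene Nceh1 the 1 higher gene, among 7 tested partners of the exporters in DL.reuteri rats against darkness rats, and the same was so against control rats. Of all genes, 12% were higher and 4.89% lower against darkness rats, and 6.43% and 6.81% against control rats. Apoa1 differed by -1.01 and -0.67 in these comparisons, and Nceh1 by 0.41 and 0.45. Without DL.reuteri 3 Apoa1 fell by 0.72 and Nceh1 rose by 0.47 in DL.reuteri rats relative to darkness rats (adjusted p = 0.0193 and 0.0358, limma), while Apoa1 differed from control rats by -0.37 and was not below the unadjusted threshold. Among 5 enzymes of oxysterol formation and removal, 1 was higher in darkness rats than in control rats, the sterol sulfotransferase gene Sult2b1 (0.37), where 0.477% of all genes were higher. In DL.reuteri rats 2 were lower than in darkness rats, Cyp7b1 (-0.30) and Sult2b1 (-0.59), where 4.89% of all genes were lower, and 2 were lower than in control rats, Cyp7b1 (-0.31) and Ch25h (-0.36), where 6.81% were, all at an unadjusted p below 0.05. Without DL.reuteri 3 Sult2b1 fell in DL.reuteri rats relative to darkness rats (-0.57, adjusted p = 0.0123, limma). These enzymes were near the floor. In DL.reuteri, darkness and control rats the means were 0.489, 1.31 and 0.738 FPKM for Sult2b1 and 0.488, 0.840 and 0.843 FPKM for Cyp7b1. For Ch25h they were 0.295, 0.479 and 0.651 FPKM. Sult2b1 in darkness rats had a median of 1.05 FPKM and reached 3.01 FPKM in its highest library.

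Scap and Nr1h3 tracked the mitochondrial share of the libraries. Over the 24 libraries, after group means were taken off, Pearson's r of log2(FPKM + 1) with that share was -0.92 for Nr1h3 and -0.89 for Scap, and without DL.reuteri 3 it was -0.87 and -0.82. FPKM divide by the reads of the whole library, mitochondrial reads included, which both quantities share. For Insig1, Abcg5 and Abcg8 the same r was 0.02, 0.03 and 0.05, and without DL.reuteri 3 it was -0.04, -0.21 and -0.14. Mylip went the other way, at 0.24 and at 0.54 without DL.reuteri 3. For Abca1 it was -0.40 with DL.reuteri 3 and 0.15 without it, and for Srebf2 it was -0.42 and -0.20.

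**Figure D4:**
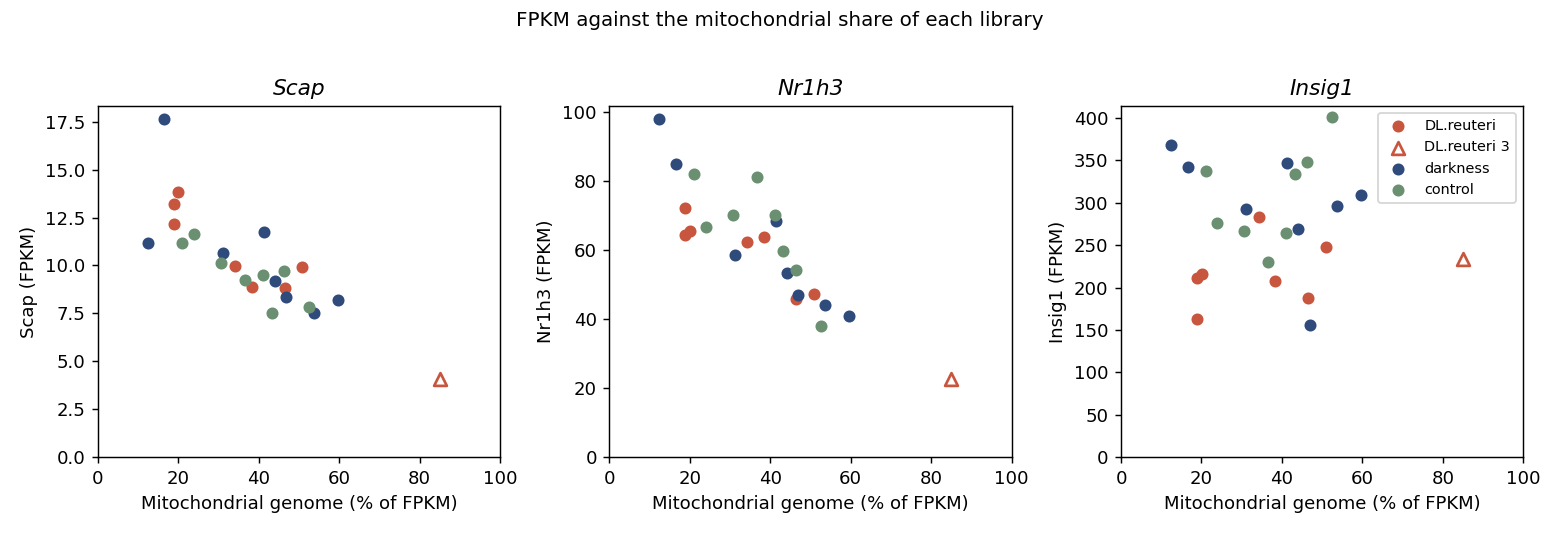
Scap, Nr1h3 and Insig1 (y axes, FPKM, from 0) against the percent of FPKM from the mitochondrial genome (x axis) in each of 24 libraries, coloured by group, with DL.reuteri 3 (85.0%) as an open triangle. Scap and Nr1h3 are lower in libraries of higher mitochondrial share, and Insig1 shows no such slope. The r of 0.02 for Insig1 in the text is of log2(FPKM + 1) with the share, group means taken off both, and not of the plotted values.

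The genes whose pattern was most like each of the 8 were ranked by the same r over 24 libraries, which share depth and library make-up. For Scap they were Plxnb2 (0.95), Slc39a1 (0.94) and Opa1 (0.93), and for Nr1h3 Ap3s2, Calm2 and Pigt (0.95 each). Scap and Nr1h3 were also the most alike pair among the 8, at 0.83 and at 0.72 without DL.reuteri 3. For Abca1 they were Nipbl (0.91), Cdk12 (0.88) and Zfp638 (0.87), which came to 0.77, 0.75 and 0.77 without DL.reuteri 3. Srebf2 was most like Grcc10 (0.79), Cnot1 (0.77) and Clns1a (0.76). Mylip was most like Dpep2 (0.80), Gnpda1 (0.78) and Il2rg (0.78). Insig1 was most like Ppp1r3g (0.66), Il4r (0.66) and Ch25h (0.64). The transporter genes, besides each other, were most like LOC287167 and Slc25a25 (0.67) for Abcg5, and Ggt1 (0.66) and Ppia (0.59) for Abcg8.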

How the data were processed

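Liver RNA of 24 rats, 8 each in the DL.reuteri, darkness and control groups as labelled, was measured by RNA sequencing with 1 library per rat. Per the submitters' processing notes and the methods of the study, the authors trimmed reads (Seqtk), aligned them to the Rnor 6.0 genome by HISAT2 2.0.4 and deposited FPKM per gene from StringTie. No further scaling between libraries and no strand setting is given in the sources used here. FPKM hold no read counts, so depth gives no interval and precision rests on 8 rats per group. A library rich in mitochondrial reads has lower FPKM elsewhere. The authors' table held 30958 rows, and 1 duplicate row at 0 was left out. The 8 genes, the pathway lists and the tests were chosen with earlier results of these data known.

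For each gene log2(FPKM + 1) was compared by limma 3.58.1 (R 4.3.3). All 24 libraries entered 1 fit without covariates, the variance prior followed a trend, and 12151 genes reaching 0.5 FPKM in 8 or more libraries were tested. P-values were adjusted over these genes by the method of Benjamini and Hochberg, and rose, fell and changed are used at an adjusted p under 0.05. Single genes were also compared by two-sided exact permutation tests of mean log2(FPKM + 1), 8 rats against 8. Named are the 8 genes, for each the 3 genes of highest Pearson's r over group-centred values, up to 3 genes per pathway list and comparison by smallest p under 0.05, and Insig2, Srebf1 and Rxra. Arl4c and Abcb4 were not matched by name and were not analysed here. Some genes of the uptake list are not reported here. Alternatives were other pseudocounts, filters and scalings, fits of 2 groups, the library term of Ballgown, array weights, a replicate block, covariates for mitochondrial share and hepatocyte markers, and fits without libraries. Promoters came from RefSeq (GRCr8). Figures were drawn with matplotlib 3.10.9 in Python 3.11.15.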

Additional observations from a re-analysis of the deposited data

Results flagged for a closer look

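For each of the 8 genes and 3 groups, 24 sets of 8 libraries in all, the highest and the lowest library were examined for a gap to the next library that was large against the range of the group, a criterion that chance alone meets in about 1 of 20 sets. It picked out 4 values, which lay in DL.reuteri 3, darkness 1 and darkness 6. Abca1 had 5.85 FPKM in DL.reuteri 3, with the next lowest DL.reuteri library at 11.3 FPKM. Abcg5 had 5.02 FPKM in DL.reuteri 3, the highest of its group, with the next at 2.74 FPKM. DL.reuteri 3 is also the library with 85.0% of its FPKM from the mitochondrial genome. Insig1 had 156 FPKM in darkness 1, with the next lowest darkness library at 269 FPKM. Scap had 17.6 FPKM in darkness 6, with the next highest at 11.7 FPKM. The mitochondrial share was 16.5% in darkness 6 and 46.9% in darkness 1. The part of these library properties in the values was not tested.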

How the results depend on the processing

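Each of the 24 differences of the 8 genes was computed again under 39 alternatives. Abcg8 between DL.reuteri rats and control rats kept its direction and an unadjusted p below 0.05 in all 39, Abcg5 and Insig1 in 38 of 39 each, and Insig1 between DL.reuteri rats and darkness rats in 32 of 39. Abca1 between DL.reuteri rats and darkness rats ranged from 0.08 to 0.34 and had an unadjusted p below 0.05 in 5 of 39. With the joint removal of control 8 and DL.reuteri 2 and 3 its adjusted p was 0.0796 (limma). The adjusted p of Abcg8 against control rats ranged from 0.0469 to 0.297. Some alternatives brought an adjusted p under 0.05 in limma or, for Ballgown, in its linear model. Against control rats these were the library term of Ballgown for Insig1 (0.0494) and Abcg5 (0.0484) and the hepatocyte covariate for Abcg8 (0.0469). For DL.reuteri rats against darkness rats they were array weights for Srebf2 (0.0343) and Abca1 (0.0414) and the fit without DL.reuteri 3 for Abca1 (0.0469).

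The number of the 8 genes at an unadjusted p below 0.05 between darkness rats and control rats was 1. It was 0 with pseudocounts of 0.1 and 0.01, no filter, all 3 rescalings, only 2 groups, the library term of Ballgown, array weights, the replicate block and the hepatocyte covariate, and from 0 to 2 without 1 library. Against darkness rats the number in DL.reuteri rats was 1. It was 2 with rescaling outside the mitochondrial genome and with array weights, but these were Srebf2 and Abca1, both higher, and Insig1 was not past the threshold. In those fits 2655 and 3330 of all 12151 genes were higher and 464 and 537 lower. It was also 2 with the hepatocyte covariate and with the joint removal of control 8 and DL.reuteri 2 and 3 (Insig1 lower and Abca1 higher). There, 2991 and 2614 of all 12151 genes were higher and 703 and 439 lower. With only 2 groups the number was 0. Without 1 library it ranged from 0 (darkness 3, 6 or 7 or DL.reuteri 2 left out) to 3 (DL.reuteri 3 left out). Against control rats it was 3, but 1 with rescaling outside the mitochondrial genome. It was 5 with array weights (Srebf2 and Mylip higher in addition), where 2235 of all 12151 genes were higher and 766 lower. It was 4 with the covariate for mitochondrial share (Nr1h3 in addition, -0.214), where 1365 of all genes were higher and 1377 lower. It was also 4 with the joint removal (Mylip in addition, 0.414), where 1433 of all genes were higher and 572 lower. At an adjusted p under 0.05 the number was 0, but against darkness rats 2 with array weights, where 1758 of all genes were higher and 229 lower by that measure, and from 0 to 1 without 1 library (1 without DL.reuteri 3), and against control rats 2 with the library term of Ballgown (189 and 473 of all genes) and 1 with the hepatocyte covariate (369 and 227). Among the pathway genes named, an unadjusted p below 0.05 held in 15 of 38 alternatives for Rxrb and 21 for Stard4 between darkness rats and control rats, in 28 for Lrp1 against darkness rats, and in 28 for Paqr3 and 31 for Apoa1 against control rats.

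Signs turned only among differences not past the threshold. Between darkness rats and control rats Srebf2 came to 0.0041 and 0.0218 and Insig1 to 0.0047 and 0.0235 after rescaling to the 75th percentile and by median ratios, and Nr1h3 to 0.0372 with the library term of Ballgown. Without 1 library Scap ranged from -0.0082 to 0.153, Insig1 from -0.122 to 0.0614 and Mylip from -0.0255 to 0.143. In DL.reuteri rats against darkness rats Scap came to 0.0544 with rescaling outside the mitochondrial genome, 0.0632 with array weights, 0.0686 with the hepatocyte covariate and 0.0303 with the joint removal, and Nr1h3 to 0.0922 with array weights and 0.0161 with the hepatocyte covariate. Without 1 library Scap ranged from -0.147 to 0.0742 and Nr1h3 from -0.239 to 0.0047, and against control rats Scap ranged from -0.0512 to 0.170. The causes were not tested.

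Same-numbered libraries of different groups had correlations from -0.39 to 0.60 over 24 pairs, 12 of them over 0.1, and 4 libraries were most like their own number. The labels name no pairing, and such correlations cannot show whether rats of the same number shared a cage or a batch. With the replicate block Abcg8 between darkness rats and control rats kept -0.50 but was no longer at an unadjusted p below 0.05, and no other of the 24 calls changed.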
